A study of Homo sapiens with 7 samples.

Results

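The locus of ABHD2 on human chromosome 15 was described from the 6 deposited peak lists of a chromatin immunoprecipitation sequencing (ChIP-seq) study of HOXB13 acetylated at lysine 13 (HOXB13-K13ac). Members were all peaks sharing at least 1 bp with hg19 chr15:89580000-89790000, which were 92 of the 148463 peaks in the lists. The gene body was taken as about 89631381 to 89745591, a length of 114 kb. This window was selected on its many replicated sites in these same lists, so its peak counts and densities are given as a description, with no test. Particular attention went to a run of closely spaced sites from 89630644 to 89683824.

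The samples were HOXB13-K13ac precipitations (3 libraries), IgG precipitations with a non-specific antibody (2 libraries) and inputs of unprecipitated chromatin (2 libraries). All came from 1 cell line, C4-2B, a castration-resistant prostate cancer line derived from LNCaP cells, cultured in charcoal-stripped serum, which is low in steroid hormones. The labels name no genetic change and no further treatment in any group. The titles of replicate 1, of 1 IgG and of 1 input begin with the number 2898, and those of replicates 2 and 3, the other IgG and the other input with 3047. The labels do not say what this number stands for, and what it marks cannot be told apart from replicate 1. Read depth is unknown, the lists used here are all of precipitated HOXB13-K13ac chromatin, and nothing in the labels says whether the libraries came from separate cultures. The lists hold no expression values, so the cell line label could not be checked against marker genes.

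Each of replicates 2 and 3 was called separately against input and against IgG, while the control of the single replicate 1 list is unnamed. A further list against input carries the antibody's name with a suffix found in no library's labels. It is called here the list tied to no library. The names of replicates 1 and 3 differ by 1 punctuation mark, so which of these libraries each list belongs to rests on that mark. Fold enrichment is the authors' value at a peak's summit, a ratio to the control's local background, and each value comes from a single list and has no replicate error.

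ABHD2 is a serine hydrolase of the alpha/beta hydrolase fold that cleaves monoacylglycerols. It is known for the progesterone-activated hydrolysis of 2-arachidonoylglycerol in human sperm and as an androgen-responsive gene in prostate cancer cells. HOXB13 is a homeodomain transcription factor of the prostate lineage, where it occupies enhancers together with the androgen receptor and the forkhead factor FOXA1. Some runs of closely spaced regulatory sites are called super-enhancers, a class that is defined by signal and not by spacing alone. Regions were not ranked by signal here, so the run was not assigned to this class. In the RefSeq gene table (GRCh38.p14, used for gene order only), the named protein-coding gene before ABHD2 is MFGE8, which bridges dying cells to phagocytes. After it come RLBP1, a retinaldehyde carrier of the visual cycle, and FANCI, a DNA crosslink repair protein.

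The given start of ABHD2, hg19 position 89631381, lay inside the run, so promoter sequences of the gene are shown here. RefSeq lists 2 starts for ABHD2 on the plus strand of GRCh38.p14, 47.5 kb apart. Which of them the given hg19 start stands for was not determined, and whether both lie in the run is not known. All positions along the gene below count from the given start. Each window holds 250 bases before the start and 50 after it, in lower case, with motif matches in capitals. They come from chr15:89040748-89041047 for the first start and chr15:89088206-89088505 for the second.
ABHD2 first start: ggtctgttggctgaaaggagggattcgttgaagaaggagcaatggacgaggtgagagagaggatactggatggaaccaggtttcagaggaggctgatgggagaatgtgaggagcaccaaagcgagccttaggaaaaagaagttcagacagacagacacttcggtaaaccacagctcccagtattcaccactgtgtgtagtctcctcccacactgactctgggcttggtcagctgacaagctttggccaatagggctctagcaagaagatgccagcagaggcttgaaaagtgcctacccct
ABHD2 second start: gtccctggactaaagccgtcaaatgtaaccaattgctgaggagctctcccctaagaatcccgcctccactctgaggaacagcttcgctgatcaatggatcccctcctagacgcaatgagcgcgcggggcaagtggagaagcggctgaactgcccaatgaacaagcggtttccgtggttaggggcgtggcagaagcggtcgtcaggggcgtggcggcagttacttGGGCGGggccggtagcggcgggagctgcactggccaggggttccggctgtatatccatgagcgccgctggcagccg
These positions belong to GRCh38.p14 and were not placed on hg19, so neither window was assigned to a peak.

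The 2 windows differed in base composition. The second held 62.0% G and C and 23 CpG dinucleotides, above 58.6% and 64.2% of the 35116 promoter windows in the table. The first held 51.7% G and C and 4 CpG dinucleotides, above 34.1% and 24.5% of them. Of 9 motifs searched on both strands, 1 had a match: the GC box GGGCGG, at bases 225 to 230 of the second window, or from base -26 counted from the start. A GC box is present in 45.0% of all windows. The 3 HOXB13 forms TTTTATNG, TTTACNAG and CCAATAAA, some of which can overlap each other, are in 3.40%, 1.88% and 0.934% of all windows. They had no match in either ABHD2 window, and the sequence under the run's peaks was not searched. Neither window held the androgen receptor hexamer AGAACA (14.8% of all windows), the forkhead motif TGTTTAC (3.42%) or the MEIS motif TGACAG (15.8%). The ETS motif CCGGAAG (10.3%) and the cyclic AMP response element TGACGTCA (1.85%) were also without a match.

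Peaks in the window crowded into the first part of the gene. The list of replicate 1 had 29 peaks there, of which 25 lay in the run. Replicate 2 against input had 23, with 20 in the run, and the list tied to no library had 30, with 26 in the run. Replicate 3 against input had 4 peaks, with 2 in the run. Replicate 2 against IgG had 6, all in the run, and replicate 3 against IgG had 0. Peaks covered 47.5% of the run in replicate 1, 65.9% in replicate 2 and 49.7% in the list tied to no library, against 1.27%, 1.68% and 1.20% of chromosome 15 in the same lists. In replicate 3 they covered 0.948% of the run and 0.214% of the chromosome.

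The run began 737 bp before the given start of ABHD2 and ended 52.4 kb into the gene, so that it held the first 45.9% of the gene's length. The remaining 61.8 kb of ABHD2 held 1 peak of replicate 2, from 89693746 to 89694520, with a fold of 5.01. It also held 1 of replicate 3, from 89728595 to 89728788, with a fold of 3.602. The lists of replicate 1, of replicate 2 against IgG and tied to no library had no peak there. No annotation of hg19 was used, so the exon or intron under each site was not looked up.

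**Figure D1:**
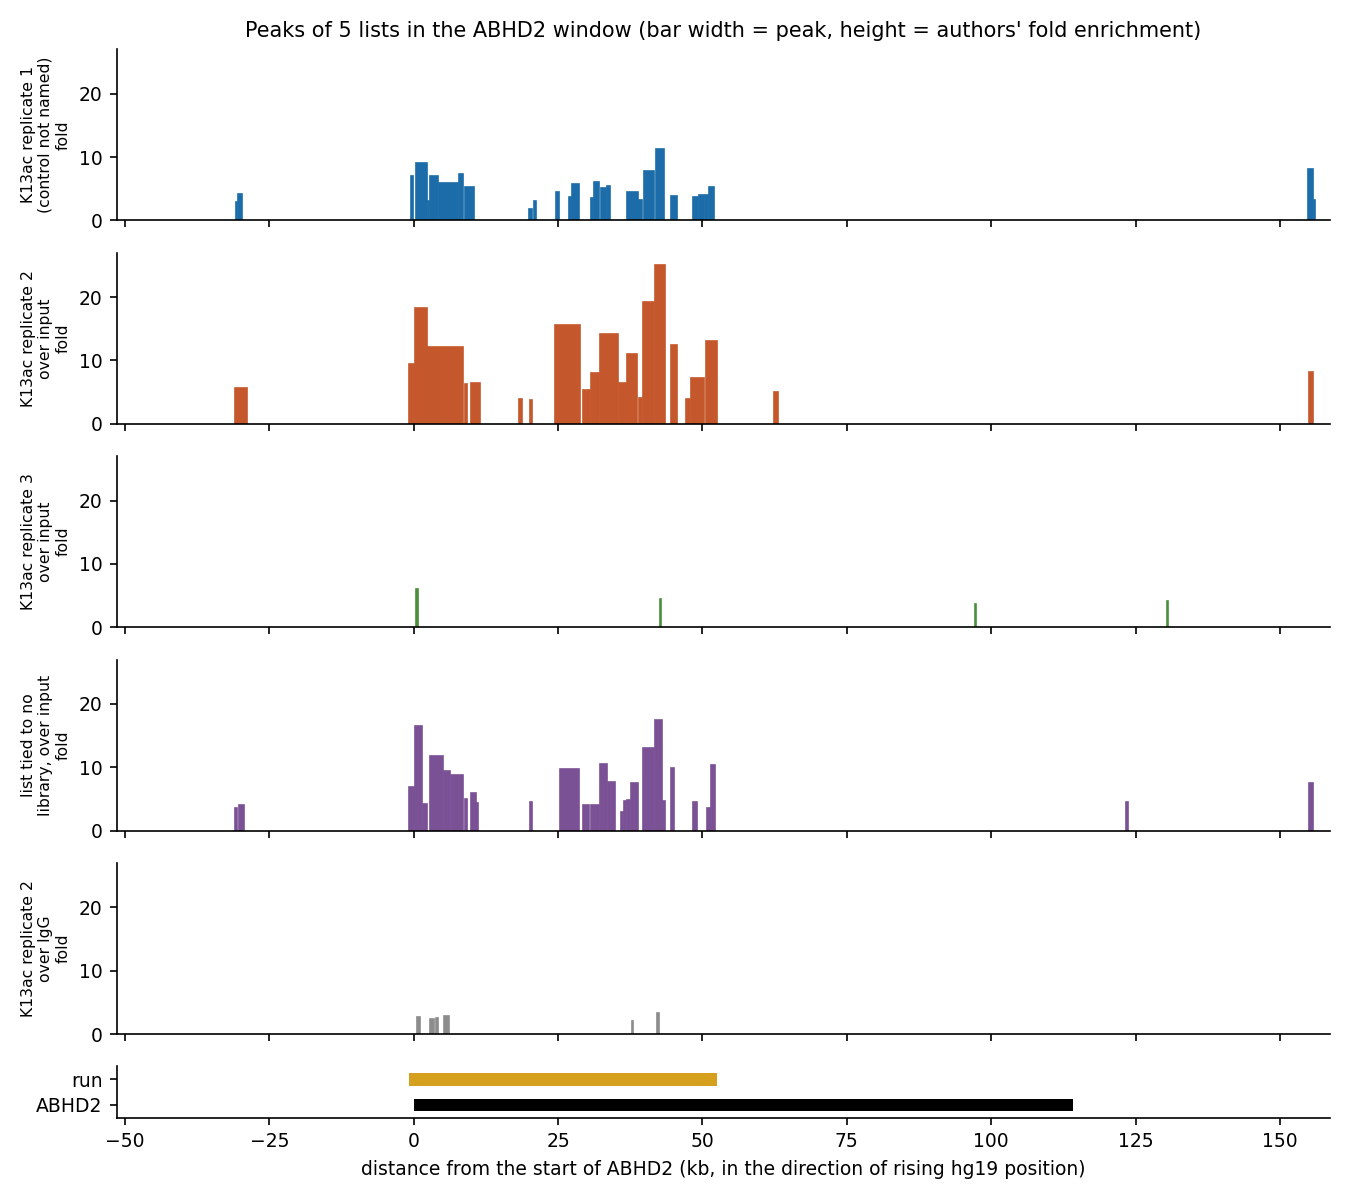
Peaks of 5 lists in the window, by distance from the start of ABHD2 in kb, with bar width showing peak width and bar height the authors' fold enrichment; the lower bars mark the run and the gene. Replicates 1 and 2 and the list tied to no library have most of their peaks in the first 52.4 kb of ABHD2, with a gap of 8.56 kb between 2 blocks of sites, while replicate 3 has 4 narrow peaks and the IgG list 6 low ones.

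Peaks were wide rather than uniformly strong. In the run, replicate 1 peaks had a median width of 858 bp, against 555 bp over its whole list. Replicate 2 peaks had a median of 1526 bp, against 635 bp, and those of the list tied to no library 798.5 bp, against 588 bp. The widest peak was one of replicate 2, 6257 bp long, from 89633715 to 89639971. Across that stretch replicate 1 had 4 peaks and the list tied to no library 3. The median fold of run peaks was 5.17 in replicate 1, with 4.67 over its whole list. It was 8.74 in replicate 2, with 6.50 over the list, and 6.46 in the list tied to no library, with 6.39 over the list. Of the 29 window peaks in replicate 1, 24 had a −log10 q of 5 or more, where 80.7% of all its peaks do. The counts were 18 of 23 in replicate 2, with a background of 67.2%, and 17 of 30 in the list tied to no library, with a background of 72.7%. In replicate 3 it was 0 of 4, with a background of 6.28%. The exact 95% binomial intervals of these shares were 64.2% to 94.2% in replicate 1, 56.3% to 92.5% in replicate 2, 37.4% to 74.5% in the list tied to no library and 0% to 60.2% in replicate 3. Each list's own background lies inside its interval. Neighbouring peaks of 1 list are not independent, so the intervals cover counting error only and nothing is concluded from them.

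Merging the lists of replicates 1, 2 and 3 gave 26 regions in the window. Of these, 17 held peaks of at least 2 libraries and are called replicated sites, against a background of 41.2% of all 65675 merged regions. All 3 libraries were present in 2 regions, against a background of 6.99%. The number of sites chose the window, so nothing is read from the first share. Sites 10 kb apart or less were joined, and 15 of the 17 formed the run of 53.2 kb. Every run site held peaks of replicates 1 and 2, so replicate 3 decided none of them. Without replicate 3 the run again had 15 sites. Without replicate 1 or without replicate 2, when both remaining libraries were required, 2 sites were left inside its span, too far apart to be joined.

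The run fell into 2 blocks. The 4 sites at the gene's start spanned 12.2 kb, from 89630644 to 89642850. A gap of 8.56 kb followed, in which replicate 2 alone had a peak, from 89649643 to 89650106, with a fold of 3.95. The other 11 sites spanned 32.4 kb, from 89651407 to 89683824. Gaps between neighbouring sites ranged from 57 to 8556 bp with a median of 214.5 bp, and 8 of the 14 were under 1 kb. The first block was more densely covered, with 79.6% of its length under replicate 1 peaks and 91.0% under replicate 2 peaks. The corresponding values were 48.0% and 72.5% in the second block. The nearest replicated site before the run ended 28.2 kb away, and the nearest after it began 102.5 kb away.

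In the lists of replicate 1, of replicate 2 against input and tied to no library, the strongest site of the run lay away from the given start of the gene. In replicate 3 against input it was site 2, next to the start. The strongest in those 3 lists was site 12 in order along the chromosome, from 89673124 to 89674879, centred 42.6 kb past the start of ABHD2. Its fold was 11.2 in replicate 1, 25.1 in replicate 2, 4.43 in replicate 3 and 17.5 in the list tied to no library. Replicates 1 and 2 and the list tied to no library each had their highest fold of the run here. The summits of these 3 lists lay within 37 bp of each other, while that of replicate 3 lay 508 bp from the summit of replicate 1 and 491 bp from that of replicate 2. The −log10 q of site 12 was 75.4, 59.6, 2.12 and 41.8 in the same order of lists. In replicates 1 and 2 its fold was above 85.8% and 93.1% of the 26760 sites held by both, so many sites elsewhere in the genome were stronger.

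Site 2, the other site of all 3 libraries, lay just past the start, from 89631616 to 89633657. Its fold was 8.98 in replicate 1, 18.2 in replicate 2, 6.0 in replicate 3 and 16.5 in the list tied to no library. It ranked 2 of the 15 sites in replicate 1 and in the list tied to no library, and 3 in replicate 2. The replicate 3 peak in it, 348 bp wide, was above 90.9% of that list's peaks in fold, while its peak in site 12 was above 51.1%. Among the run's 15 sites, 2 were in all 3 libraries, compared with 17.0% of all 27046 replicated sites.

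The given start of ABHD2, position 89631381, fell in site 1, from 89630644 to 89631427. Site 1 had a fold of 7.03 in replicate 1, 9.48 in replicate 2 and 6.96 in the list tied to no library, and no peak of replicate 3. All 3 values were below those of neighbouring site 2 in the same list. Site 11, from 89671082 to 89673044, lay 79 bp before site 12. Its fold was 7.76 in replicate 1, 19.3 in replicate 2 and 13.1 in the list tied to no library, which ranked it 3, 2 and 3 of 15. The last site, 15, from 89681818 to 89683824, had folds of 5.33, 13.1 and 10.3 in the same lists.

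The other 10 sites of the run spanned folds of 1.85 to 7.35 in replicate 1, 3.76 to 15.6 in replicate 2 and 4.05 to 11.8 in the list tied to no library. The weakest in replicates 1 and 2 was site 5, from 89651407 to 89651830, which is the only site between the gap and the dense part of the second block. It had a fold of 1.85 in replicate 1, 3.76 in replicate 2 and 4.60 in the list tied to no library, with a −log10 q of 0.532 in replicate 1. Without it the gap between neighbouring sites would exceed 10 kb, so the 2 blocks are joined by this site alone. When peaks needed a −log10 q of at least 5, the longer remaining piece of the run had 9 sites.

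**Figure D2:**
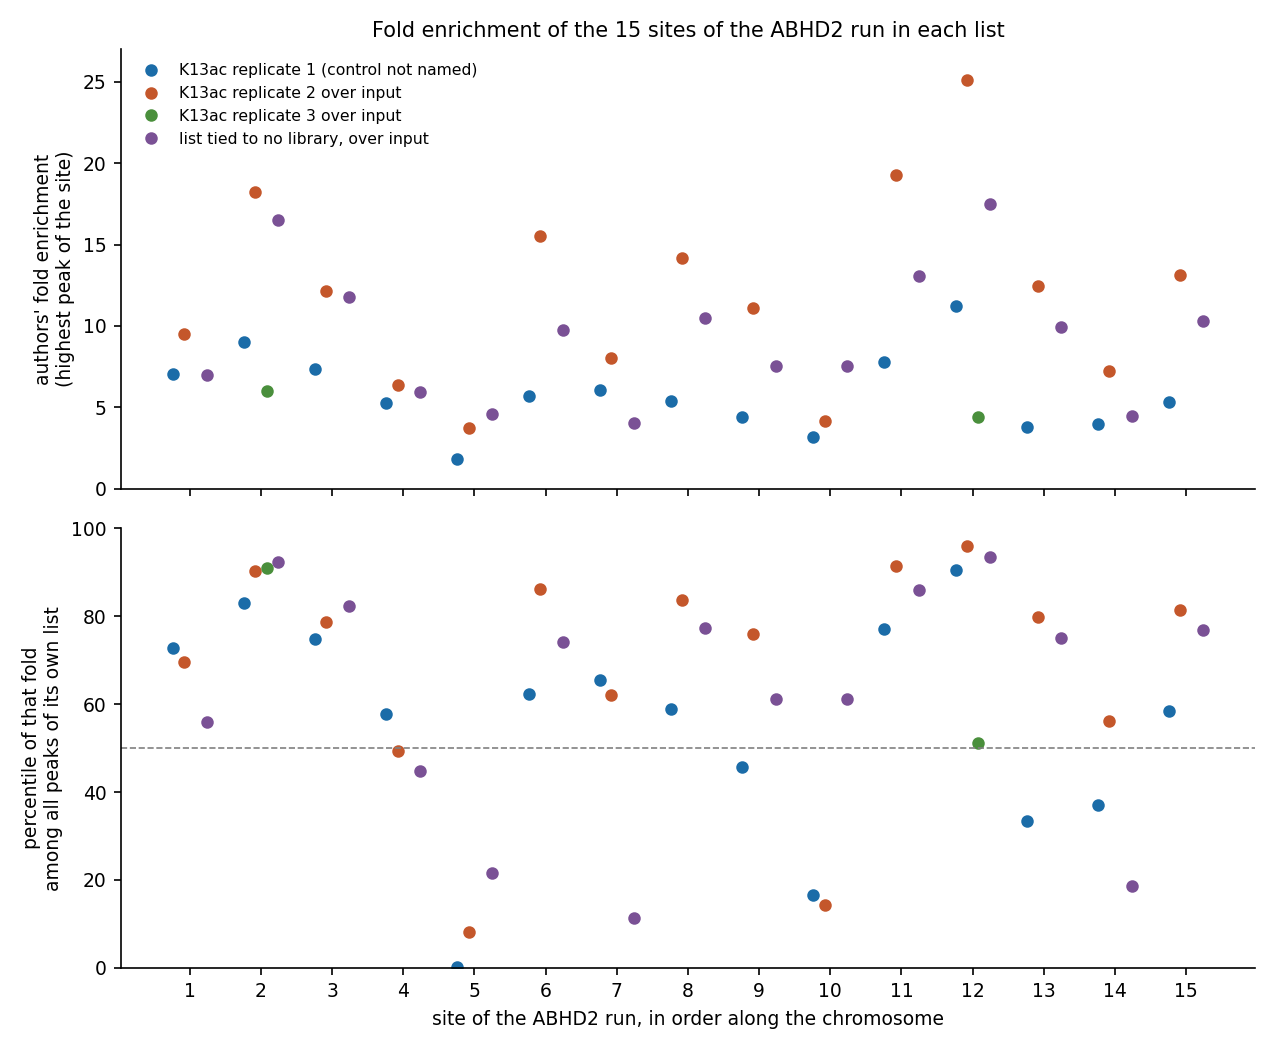
Fold enrichment (upper axis) and its percentile among all peaks of its own list (lower axis, with the middle at 50) for the 15 run sites, in order along the chromosome, in 4 lists. Sites 2, 11 and 12 stand highest in replicate 2 and in the list tied to no library, site 5 is lowest in replicates 1 and 2, and replicate 3 is present at sites 2 and 12. In the list tied to no library, sites 9 and 10 show the same peak.

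Over all 15 sites, the fold in replicate 1 ranged from 1.85 to 11.2 with a median of 5.38. In replicate 2 it ranged from 3.76 to 25.1 with a median of 12.1, and in the list tied to no library from 4.05 to 17.5 with a median of 9.77. The 26760 sites of replicates 1 and 2 across the genome had medians of 5.85 in replicate 1 and 9.38 in replicate 2. The run's median was thus a little below the genome's in replicate 1 and above it in replicate 2. These medians use each site's highest peak and are not matched for width, which had a median of 1963 bp in the run and 1012 bp over all such sites. By single peaks, the replicate 1 median was 5.17 in the run and 4.67 over its list. The fold was higher in replicate 2 than in replicate 1 at 15 of 15 sites, against a background of 88.3%. The ratio of the 2 folds ranged from 1.21 at site 4 to 3.29 at site 13, with a median of 2.03 in the run and 1.65 over all such sites. The controls behind these 2 lists may differ, so the ratio compares lists and not amounts of HOXB13-K13ac.

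The order of the sites by fold was alike in the lists. Spearman's rho over the 15 sites was 0.74 between replicates 1 and 2, 0.63 between replicate 1 and the list tied to no library, and 0.86 between replicate 2 and that list. These sites lie side by side, wider sites can hold more peaks, and lists may share a library or a control, so the coefficients describe these lists and have no p. Over all 26760 sites of replicates 1 and 2 the coefficient was 0.71. In the list tied to no library, sites 9 and 10 share 1 peak. Its fold of 7.53 was counted at both, in the coefficients with that list and in that list's median.

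Summits were compared at the highest peak of each site. Those of replicates 1 and 2 lay within 100 bp of each other at 5 of 15 run sites, with an exact 95% interval of 11.8% to 61.6%, against a background of 57.9%, which lies inside it. The distance ranged from 17 to 2449 bp with a median of 135 bp in the run, against 80 bp over all such sites. Run sites were also wider, with a median of 1963 bp against 1012 bp, and the relation of width to this distance was not tested. Between replicate 2 and the list tied to no library, summits lay within 100 bp at 12 of 15 sites, with a median distance of 41 bp. Between replicate 1 and that list it was 5 of 15, with a median of 139 bp. The share over all sites was not computed for that list, so neither count is read as particular to the run. At site 10 the summit compared for that list lies in site 9, since its only peak at site 10 is shared with site 9. Sites built from summits within 100 bp left 5 replicated sites in the window, with 2 in the largest remaining part of the run.

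The list tied to no library, which played no part in choosing the run, had a peak at 15 of 15 run sites. The exact 95% binomial interval of this share is 78.2% to 100%, and the background over all replicated sites was 86.9%, which lies inside that interval. The interval treats neighbouring sites as independent. An overlap of 1 bp was enough, and the median width was 1963 bp in the run against 1012 bp at all sites of replicates 1 and 2. The share was not matched for width. A summit of that list fell in 14 of the 15. At site 10, from 89670230 to 89670888, its only peak was shared with site 9 and overlapped by 24 bp. This list may share a library or input with replicate 2, so its presence is not an independent replicate.

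The share of run sites with a peak over IgG had a wide interval that held the share of all replicated sites. Run sites were also wider, with a median of 1963 bp against 1012 bp at all sites of replicates 1 and 2. No share matched for width was computed. Replicate 2 had them at 4 of 15 run sites, 26.7% with an exact 95% interval of 7.79% to 55.1%, near the background of 23.2% of all replicated sites. The 4 were sites 2, 3, 9 and 12. Their folds over IgG were 2.75, 2.81, 2.07 and 3.28, where the same sites had folds over input of 18.2, 12.1, 11.1 and 25.1. None of the 6 IgG peaks had a −log10 q of at least 1.3 (a q of about 0.05), and their highest was 0.686. Across the IgG list, 21.5% of peaks reached it, and 5.55% of all replicated sites held such a peak. With 0 of 15 sites the exact 95% interval reaches 21.8%. It treats neighbouring sites as independent, so a share like the background was not distinguishable at this number of sites. Both lists are calls on the same replicate 2 library, so a site's values over input and over IgG are not independent. The 4 sites with an IgG peak had a median fold over input of 15.2 in replicate 2, and the 11 without had 9.48. The highest of the 11, site 11, had 19.3 over input and no peak over IgG.

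**Figure D3:**
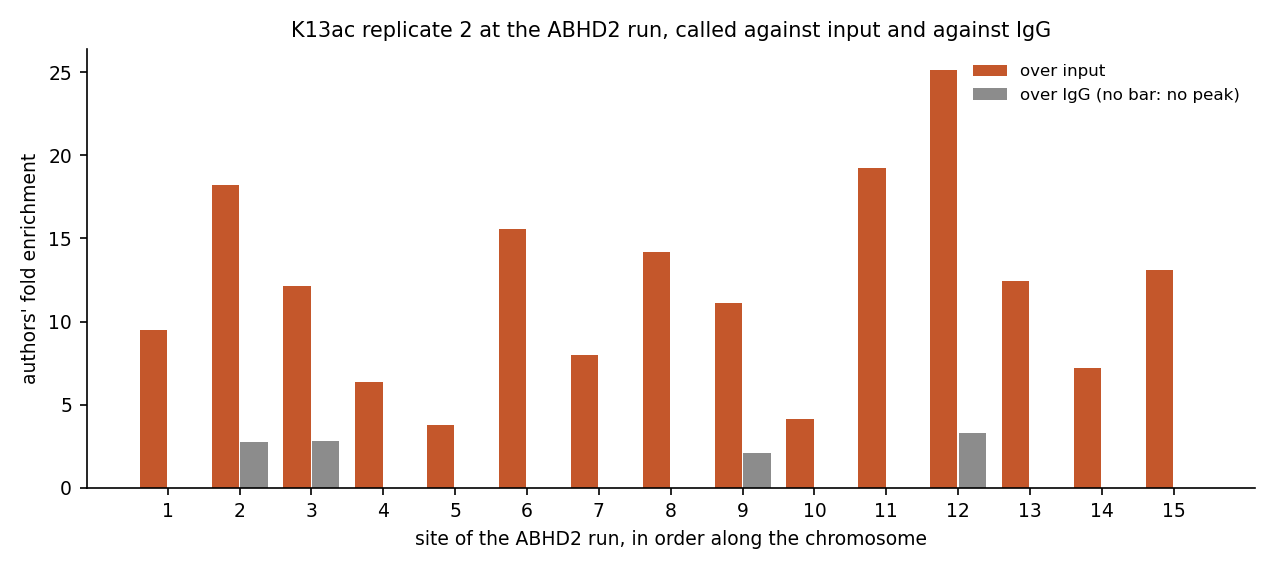
Fold enrichment of replicate 2 at the 15 run sites, in order along the chromosome, over input and over IgG as the authors' lists give them. Folds over input range from 3.76 to 25.1, and the 4 sites with an IgG peak have folds over IgG of 2.07 to 3.28.

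Outside the run, 2 replicated sites lay in the window. One, upstream of ABHD2 from 89600414 to 89602453, had a fold of 4.17 in replicate 1, 5.72 in replicate 2 and 4.07 in the list tied to no library. The other, beyond the end of ABHD2 from 89786310 to 89787153, had 8.19 in replicate 1, 8.16 in replicate 2 and 7.54 in the list tied to no library. It lies on the side of RLBP1 and FANCI and was not assigned to either gene. In replicate 1 its −log10 q of 39.9 was higher than that of 12 of the run's 15 sites. Past the edges of the window, the next replicated sites lay 123.0 kb before it and 87.2 kb after it.

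Of the 26 regions, 9 were of a single library: 5 of replicate 2, 2 of replicate 1 and 2 of replicate 3. Inside the span of the run there were 5 of these. The replicate 2 regions had folds from 3.95 to 6.50, and 2 of the 5, from 89660689 to 89661895 and from 89666967 to 89668239, were also in the list tied to no library. The 2 of replicate 1 had folds of 3.03 and 3.27, and the 2 of replicate 3 had 3.602 and 4.20. A single peak of the list tied to no library, from 89754764 to 89755134 with a fold of 4.60, lay beyond ABHD2 and overlapped no replicate's peak.

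Across the genome, 448 runs held at least 5 replicated sites, and 8 of them had more sites than the ABHD2 run. It was set beside the other 10 runs of at least 13 sites, with no test, since all were picked by their number of sites. Its 53.2 kb were shorter than 8 of the 10, and its density of 2.82 sites per 10 kb lay inside their range of 2.28 to 3.49. Replicate 2 peaks covered 65.9% of it, and 23.4% to 59.9% of the others. Replicate 1 peaks covered 47.5% of it, and 1 of the others had more, at 62.3%. The median site fold in replicate 2 was 12.1 at ABHD2 and from 6.08 to 17.9 in the others, of which 1 was higher. In replicate 1 it was 5.38 at ABHD2 and from 3.67 to 9.60 in the others, of which 2 were higher. IgG peaks were present at 26.7% of the ABHD2 sites and at 5.0% to 52.9% of those of the others. Besides the ABHD2 run, 1 of the other 10 had no site with an IgG peak of a q of about 0.05 or less.

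**Figure D4:**
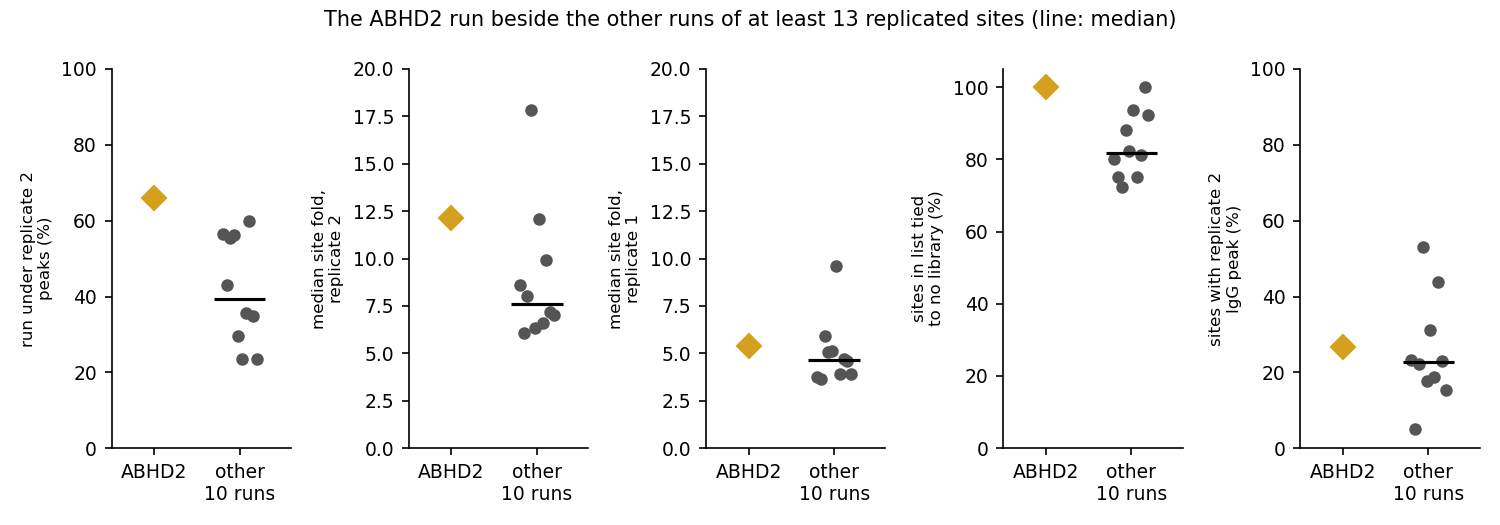
The ABHD2 run (diamond) and the other 10 runs of at least 13 replicated sites (points, with their median as a line), for 5 measures in percent or fold. ABHD2 has the highest coverage by replicate 2 peaks, 65.9%, and lies inside the range of the others for median fold and for the share of sites with an IgG peak.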

How the data were processed

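HOXB13-K13ac ChIP-seq peak lists from C4-2B cells were analysed. The submitters' processing notes name MACS2, Bowtie2, BWA and CASAVA 1.4, and the builds hg19 and GRCh37. Which step each tool did, the caller's threshold and the filter on the lists are, however, not given in the sources used here. The deposited lists give each peak's position, a fold enrichment (a ratio), a −log10 p and a −log10 q by the authors' peak caller, and a whole-number score deposited by the authors, which is 10 times the −log10 p up to a limit and was not used. They hold no read counts, so depth is unknown.

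From these, peaks of replicates 1, 2 and 3 (against input where both controls exist) with 1 bp or more in common were merged with SciPy 1.17.1, pandas 2.3.3, NumPy 2.4.6 and Python 3.11.15. Regions of at least 2 libraries were replicated sites, and sites 10 kb apart or less formed runs. A site's fold in a list is its highest peak. Intervals are exact 95% binomial ones and cover counting error only; neighbouring sites are not independent. Coordinates are hg19, counted from 1. The window, the members and the lists were chosen with earlier results of these data known. Sites given in full were those of all 3 libraries, the 3 strongest in replicates 1 and 2, the one nearest the start of ABHD2, and the first and last of the run; others were named after their values were seen. The merging and joining code was tested on simulated lists with at most 1 peak of a library at each site. Wide peaks that span several peaks of another list, and gaps near the joining distance, were not simulated. Alternatives changed the overlap rule, the q threshold, the libraries used and the joining distance. Positions inside genes and motifs under peaks were not analysed here, for want of an hg19 genome.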

Additional observations from a re-analysis of the deposited data

Results flagged for a closer look

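A list that the labels tie to no library held 30 peaks in the ABHD2 window and had a peak at 15 of the 15 run sites. It was singled out because it lies outside the 3 lists that define the sites; no list of a control library was used to judge it. Its library, and whether it shares one with replicate 2, was not tested.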

How the results depend on the processing

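The 17 replicated sites of the window and the 15 of the run changed most with the overlap rule and with the libraries required. Where a setting splits the run, sites inside its span (a count added after seeing the data) and in its longest joined piece are both given. A share of 0.5 of both widths gave 11 in the window, 10 in the span and 6 in the piece, with 0 in all 3 libraries. Summits within 100 bp gave 5, 5 and 2, with 1 in all 3 libraries. A −log10 q of at least 5 gave 15, 13 and 9, with 0 in all 3 libraries. Leaving out 1 replicate in turn gave 2 to 17 in the window, 2 to 15 in the span and 1 to 15 in the piece, the low values without replicate 1 or 2. Joining over 5 kb left 11 sites in the longest piece, and over 20 kb 15. With the list tied to no library in place of replicate 3 there were 18 sites in the window and 16 in the run, and 16 rather than 2 in all 3 lists. Replicate 1 and that list alone, a choice made after seeing the data, gave 17 and 14. With a −log10 q of 5 or more, window peaks fell to 17 of 30 in the list tied to no library, to 0 of 4 in replicate 3 and to 0 of 6 against IgG. Requiring a −log10 q of 1.3 of the IgG peaks left 0 of the 4 run sites. Median folds moved by less than the SD of 3.95 between the medians of the 3 libraries, replicate 3 having 2 sites. No paired analysis was possible because the IgG and input libraries have no lists of their own here. The causes were not tested. Depth is unknown, so a site missing from a list cannot be told apart from one missed at low depth.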
